A study of Mus musculus with 41 samples.

Results

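The 10 genes that help to hold a cell in the epithelial state described here, Esrp1, Esrp2, Rbm47, Grhl1, Grhl2, Ovol1, Ovol2, Ehf, Elf3 and Spint1, were followed across 41 mouse mammary tumors. They were taken by gene symbol from the deposited expression table, in which all 10 were found among 47480 symbols. The choice of genes was made with earlier results of these data known. In the claudin-low tumors, a class of triple-negative tumors poor in the proteins of tight junctions and of cell adhesion, each of the 10 genes lay below every other tumor of the same genotype. Between the genotypes, with the claudin-low tumors left aside, Ovol1 and Elf3 were lower in tumors that lacked Plk2, by 1.94-fold and 2.04-fold, and the other 8 genes did not pass the test, in a comparison where 42.4% of all genes passed and 17.4% were lower. None of the 10 passed with all tumors included, and with the 7 primary Plk2-/-; p53-/- tumors in place of the 25 Elf3 alone was called, with neither called once PLK2null-7763 was removed from the 7.

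Epithelial identity is maintained at several levels. ESRP1 and ESRP2 are RNA-binding proteins that direct the splicing of transcripts such as Fgfr2 and Cd44 toward their epithelial forms, and RBM47 is a further RNA-binding protein that acts on the splicing, editing and stability of transcripts. The Grainyhead-like factors GRHL1 and GRHL2 activate junction genes such as Cdh1 and Cldn4, the zinc finger factors OVOL1 and OVOL2 repress drivers of the epithelial-to-mesenchymal transition (EMT) such as Zeb1, and EHF and ELF3 are ETS factors of epithelia. SPINT1 is a membrane-bound Kunitz inhibitor of serine proteases such as matriptase, which in turn can activate hepatocyte growth factor, the ligand of MET.

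All animals were Balb/c mice, and all tumors were p53-null. The p53-null group held 13 tumors, and the other 28 tumors were PLK2-null as well. Plk2-/-; p53-/- tumors arose from mammary epithelial cells moved into cleared fat pads of wild-type hosts, a bank of transplantable p53-/- tumors served for the other group, and all tumors were grown orthotopically in syngeneic hosts without treatment, so each library holds host cells too. The loss of Plk2 and of p53 was carried by the whole animal that gave the cells and not driven by a Cre in 1 cell type. Several tumors may descend from 1 tumor line, and the labels do not say which, so that p-values measure the spread between libraries and may be too small.

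Each tumor gave 1 library, with 29409598 to 70868089 fragments as implied by the step on which low values lie. The values are gene counts scaled within each tumor to an upper quartile of 1000 over nonzero genes, and 3 reads correspond to 1.16 to 2.45 on this scale, a limit that covers counting error only. The claudin-low class was set in the study by clustering on expression and holds PLK2null-732, PLK2null-733, PLK2null-743 and the p53-null tumor T11. Among the genes of that clustering are Grhl1, Grhl2, Elf3 and Esrp2, so differences between this class and the other tumors are given as a description, with no test. Plk2 ranged from 36.6 to 553 in the 28 Plk2-/-; p53-/- tumors and from 921 to 8028 in 12 of the p53-/- tumors. The library labelled p53null-7435 had a Plk2 value of 186, inside the range of the Plk2-null tumors, and genotype results are therefore also given without it. All 13 p53-/- titles carry 1 series name that no other title carries, so a library batch and the genotype cannot be told apart.

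The bases just before the transcription start of Elf3, Spint1 and Ovol2 are shown because these 3 genes moved together with the other members in the claudin-low tumors and their starts hold matches to motifs of the factors discussed here. The sequences are the 250 bases before the start in RefSeq on GRCm38.p6, read 5′ to 3′ on the strand of the gene, and capitals mark the matched letters. Distances refer to these RefSeq starts. On the GENCODE vM21 positions given below, the Ovol2 window lies wholly inside the gene and the Elf3 window partly inside it.
Elf3 (chr1:135258473-135258722, minus strand): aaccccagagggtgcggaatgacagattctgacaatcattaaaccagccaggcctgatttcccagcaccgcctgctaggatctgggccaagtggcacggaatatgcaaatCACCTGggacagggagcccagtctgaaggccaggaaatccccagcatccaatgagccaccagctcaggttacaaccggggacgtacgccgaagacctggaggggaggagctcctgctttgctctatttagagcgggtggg
Spint1 (chr2:119237110-119237359, plus strand): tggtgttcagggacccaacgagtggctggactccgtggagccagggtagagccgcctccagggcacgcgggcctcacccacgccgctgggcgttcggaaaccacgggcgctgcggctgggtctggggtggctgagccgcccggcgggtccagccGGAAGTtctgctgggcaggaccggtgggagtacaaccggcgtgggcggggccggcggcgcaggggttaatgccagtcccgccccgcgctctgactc
Ovol2 (chr2:144331363-144331612, minus strand): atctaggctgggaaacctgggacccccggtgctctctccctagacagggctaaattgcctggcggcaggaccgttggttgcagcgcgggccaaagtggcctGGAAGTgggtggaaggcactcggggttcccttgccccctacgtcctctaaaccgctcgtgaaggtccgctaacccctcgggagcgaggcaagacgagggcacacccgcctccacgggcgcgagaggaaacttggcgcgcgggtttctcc
The capitals in Elf3 are CACCTG, an E-box that ZEB and SNAI repressors are known to bind, which starts 140 bases before the transcription start. In Spint1 and Ovol2 they are GGAAGT, a core of ETS sites, 96 and 149 bases before the start. Start sites of 5 of the 10 genes were matched, as 8 sequences with the alternative starts of Rbm47 and Grhl1, and both strands were searched. The E-box (CACCTG or CAGGTG) was in 1 of the 8 sequences and in 17.2% of all 32851 windows of this length. The ETS core (GGAAGT or ACTTCC) was in 3 of the 8 and in 19.7% of all windows, the third being an Rbm47 start. Neither the GRHL motif AACCGGTT, found in 0.116% of all windows, nor the OVOL core CCGTTA (or TAACGG), found in 2.18%, was in any of the 8. These matches describe letters and not binding.

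Per kilobase of the longest coding transcript in GENCODE vM21, the only scale on which levels of different genes are compared here, Ehf and Spint1 led and the OVOL genes were last. In the 25 Plk2-/-; p53-/- tumors outside the claudin-low class the medians per kilobase ran from 1345 for Ehf and 1274 for Spint1, through 987 for Esrp1, 864 for Elf3, 622 for Esrp2, 443 for Grhl2, 305 for Rbm47 and 275 for Grhl1, to 96.1 for Ovol2 and 66.0 for Ovol1. Neighbours in this order overlapped in their ranges, for example Ehf from 101 to 4655 and Spint1 from 256 to 2230. In the 12 p53-/- tumors outside the class the first 4 places were held by the same 4 genes, with medians per kilobase of 1642 for Spint1, 1516 for Ehf, 1433 for Elf3 and 1088 for Esrp1, and the last 2 by Ovol1 at 132 and Ovol2 at 106.

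Esrp1 (ENSMUSG00000040728.15, chromosome 4 of GRCm38 from 11331933 to 11386783, minus strand) was almost undetected in the claudin-low tumors. Its value was 7.16 in PLK2null-732, 0 in PLK2null-733, 0 in PLK2null-743 and 6.49 in T11. In the 25 other Plk2-/-; p53-/- tumors it ran from 314 to 6782 with a median of 3813, and in the 12 other p53-/- tumors from 3357 to 8692 with a median of 4203. The lowest of the 25 was thus 43.9 times the highest claudin-low value, and the 3 claudin-low tumors lay below the others by 10.65 ± 0.57 (SE) on the log2(value + 1) scale, which depends on the added constant where values are 0. With 10 added in place of 1 the difference was -8.08.

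Its paralogue Esrp2 (ENSMUSG00000084128.10, chromosome 8 from 106130319 to 106136974, minus strand) kept a few reads in every tumor. It was at 16.1, 7.97 and 6.31 in PLK2null-732, PLK2null-733 and PLK2null-743 and at 10.3 in T11. The 25 others ran from 326 to 4235 (median, 2200) and the 12 p53-/- tumors from 534 to 2445 (median, 1170). The classes did not overlap, with a difference of -7.38 ± 0.57 (SE). An RNA of the opposite strand, 1810019D21Rik, shares 1575 bases with Esrp2 and was at 1.69 to 2.996 in the claudin-low tumors and 29.8 to 683 in the 25 others. The strand setting of the libraries is not given in the sources used here, and without it reads from the shared bases cannot be told apart.

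Rbm47 (ENSMUSG00000070780.11, chromosome 5 from 66016549 to 66173118, minus strand) was the member that stayed highest in the class, at 83.1, 75.5 and 123 in PLK2null-732, PLK2null-733 and PLK2null-743 and at 112 in T11. It ran from 231 to 3827 (median, 1588) in the 25 others and from 593 to 2414 (median, 1313) in the 12 p53-/- tumors. It was the highest of the 10 genes per kilobase in both the 3 tumors and T11, whereas it was only the seventh among the 25. The difference was -3.88 ± 0.59 (SE), and the lowest of the 25 was 1.87 times the highest claudin-low value.

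Among the transcription factors, both Grainyhead-like genes were low in the class. Grhl1 (ENSMUSG00000020656.16, chromosome 12 from 24572283 to 24617391, plus strand) was at 21.5, 11.98 and 18.1 in the 3 claudin-low tumors in the same order, at 12.98 in T11, from 383 to 2499 (median, 956) in the 25 others and from 651 to 2288 (median, 1039) in the 12 p53-/- tumors. Grhl2 (ENSMUSG00000022286.16, chromosome 15 from 37233036 to 37363569, plus strand) was at 41.5, 17.4 and 6.21, at 6.92 in T11, from 998 to 3473 (median, 2190) in the 25 others and from 1477 to 3198 (median, 2204) in the 12 p53-/- tumors. Neither gene overlapped between the classes, with differences of -5.73 ± 0.41 (SE) for Grhl1 and -6.92 ± 0.34 (SE) for Grhl2. Grhl2 was the steadiest member outside the class, with a coefficient of variation of 29.0% over the 25 tumors and 26.1% over the 12. Gm16136, an antisense RNA that shares 274 bases with Grhl2, was at 2.26 to 13.6 in the claudin-low tumors and 171 to 901 in the 25 others.

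The OVOL pair diverged. Ovol1 (ENSMUSG00000024922.2, chromosome 19 from 5549136 to 5560646, minus strand) was at 32.2, 41.3 and 27.7 in the claudin-low tumors and 14.7 in T11, against 48.2 to 386 (median, 196) in the 25 others and 41.7 to 755 (median, 394) in the 12 p53-/- tumors. Ovol2 (ENSMUSG00000037279.13, chromosome 2 from 144305175 to 144332146, minus strand) was at 1.43, 0 and 2.82 and at 0 in T11, against 34.3 to 346 (median, 149) and 89.7 to 601 (median, 164). Ovol1 showed the smallest difference of all 10 genes, -2.36 ± 0.38 (SE), and its classes were close to touching, since the lowest of the 25 was 1.17 times the highest claudin-low value. Ovol2 differed by -5.92 ± 0.52 (SE), or -3.60 with 10 added to the values. For T11, where 3 reads are worth 1.298, Ovol2 was at least 154-fold lower than the mean of the 12 other p53-/- tumors.

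Both ETS factors were among the members farthest below the other tumors. Ehf (ENSMUSG00000012350.15, chromosome 2 from 103263433 to 103303278, minus strand) was at 21.5, 33.6 and 13.6 in the 3 tumors and 3.46 in T11, against 453 to 20803 (median, 6012) in the 25 others and 1185 to 16469 (median, 6777) in the 12. Elf3 (ENSMUSG00000003051.13, chromosome 1 from 135253575 to 135258568, minus strand) was at 6.44, 0.599 and 0.565 and at 4.33 in T11, against 184 to 2976 (median, 1810) and 1150 to 5378 (median, 3003). Ehf was the most variable member outside the class, with a coefficient of variation of 74.7% over the 25 tumors, and Elf3 varied by 46.8%. The differences were -7.97 ± 0.78 (SE) for Ehf and -9.03 ± 0.60 (SE) for Elf3, the latter -6.84 with 10 added. Gm26642, an RNA of the opposite strand that covers 4994 bases of Elf3, was at 158 to 213 in the 3 claudin-low tumors, inside the range of 82.5 to 295 in the 25 others. In the 12 p53-/- tumors Gm26642 ran from 35.2 to 230 (median, 66.8), against a median of 190 in the 25, the reverse of the order of Elf3. With the strand setting unknown, reads of the 2 RNAs cannot be told apart.

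Spint1 (ENSMUSG00000027315.13, chromosome 2 from 119237362 to 119249527, plus strand) was at 12.2, 7.19 and 5.65 in the 3 claudin-low tumors and at 26.0 in T11. The 25 others ran from 595 to 5181 (median, 2959) and the 12 p53-/- tumors from 1893 to 8631 (median, 3814). The difference was -8.11 ± 0.51 (SE), and the lowest of the 25 was 48.9 times the highest claudin-low value, the widest gap of the 10 genes. With 10 added in place of 1, Spint1 differed by -7.10 and Grhl2 by -6.25.

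**Figure D1:**
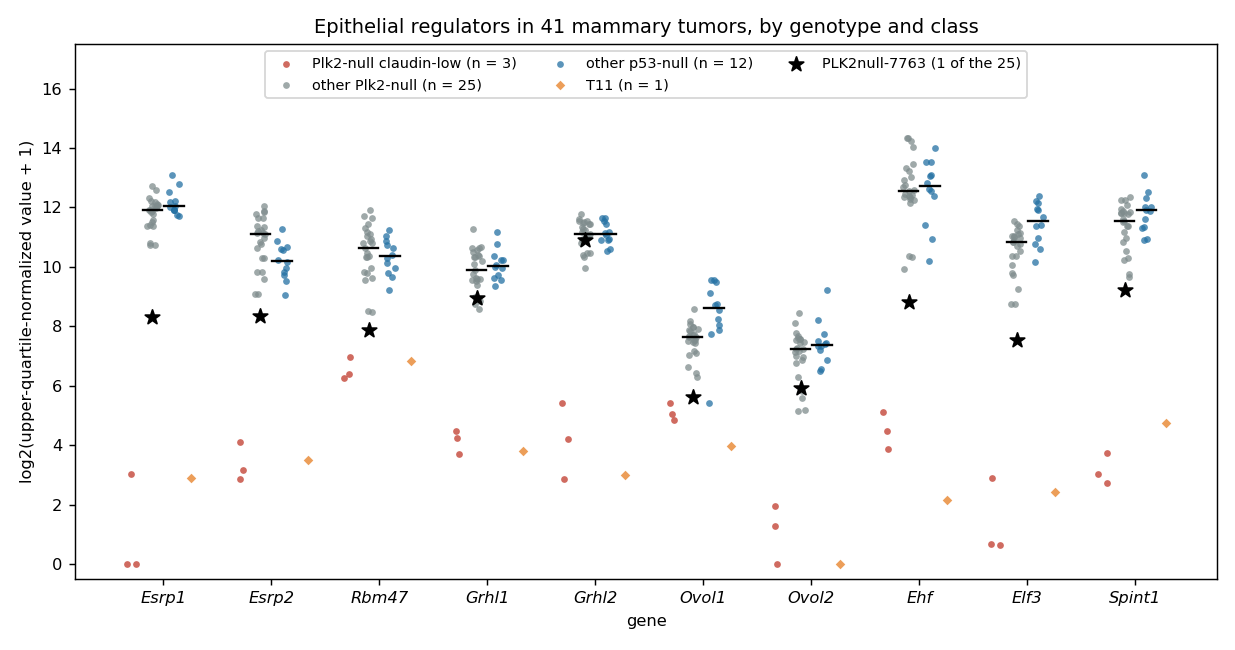
Values of the 10 genes in each of the 41 tumors, as log2(upper-quartile-normalized value + 1), with 1 point per tumor and black lines at the medians of the 25 and the 12 tumors. The 3 claudin-low tumors (red) lie below the 25 others (grey, with PLK2null-7763 as a star) for every gene, most narrowly for Ovol1, and T11 (orange) lies below the 12 other p53-/- tumors (blue).

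All 10 members were below all 25 others in the 3 claudin-low tumors, where 8.87% of the 17153 genes with a mean of at least 10 were; nothing is read from this count, since the class was drawn with genes of the same kind. The median difference of the 10 was -7.15, beside 0.02 over all genes. In bulk tissue, fewer epithelial cells and less RNA per epithelial cell cannot be told apart.

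Cell type markers moved with the class. The 7 epithelial markers (Epcam, Krt8, Krt18, Krt19, Krt5, Krt14 and Cdh1) summed to 63.8 to 422 in the 3 claudin-low tumors and 23802 to 127727 in the 25 others. None was at 0 in every tumor of either set, though Krt14 was at 0 in PLK2null-743 and Krt5 at 0 in PLK2null-1980. The 6 endothelial markers (Pecam1, Cdh5, Kdr, Tie1, Emcn and Esam) summed to 165585 to 186496 against 2572 to 78025, with all 6 above every one of the 25 tumors, as were 11.1% of all genes. Summed markers of adipocytes reached 99120 to 124699 against 227 to 51862. Nearly all of this was Fabp4, at 99093 to 124638 in the 3 tumors and 225 to 51564 in the 25. Of 4 adipocyte markers tested, Fabp4 alone lay above all 25, and Adipoq, Plin1 and Cidec overlapped. Summed markers of red blood cells reached 94952 to 351795 against 491 to 21528. The part of these cells in the low values of the 10 genes was not tested. Labelled as mammary tumors, the 3 libraries therefore lacked most epithelial RNA, with Krt8 at 63.0, 16.8 and 9.60 against a median of 18998 in the 25 others. The claudins that give the class its name were low as well, Cldn3 at 19.3, 6.59 and 1.13 and Cldn7 at 23.6, 9.59 and 4.52.

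In T11 too all 10 members were below all 12 other p53-/- tumors. Its 7 epithelial markers summed to 33830, below the 77294 to 306626 of the 12. Against the mean of the 12, 5 of the 7 (Krt5, Epcam, Cdh1, Krt14 and Krt19) were more than 4-fold lower. Epcam, Cdh1 and Krt14 lay below all 12. Krt5, Krt19, Krt8 (11057, range 198 to 116097) and Krt18 (22508, range 16732 to 95210) lay inside the range of the 12. Its endothelial markers summed to 6876, inside the 2041 to 16462 of the 12. The part of other cells in its values was not tested. The differences of T11 from the mean of the 12, with 1 tumor and so no test, were -10.35 for Ehf, -9.27 for Esrp1, -9.05 for Elf3, -8.13 for Grhl2, -7.44 for Ovol2, -7.06 for Spint1, -6.71 for Esrp2, -6.28 for Grhl1, -4.45 for Ovol1 and -3.51 for Rbm47. All 10 were thus more than 4-fold lower, which held for 12.7% of the 16666 genes compared, with a median over all genes of -0.16. Ovol1 and Rbm47 were the 2 least lowered members in T11 and in the 3 Plk2-/-; p53-/- tumors alike.

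**Figure D2:**
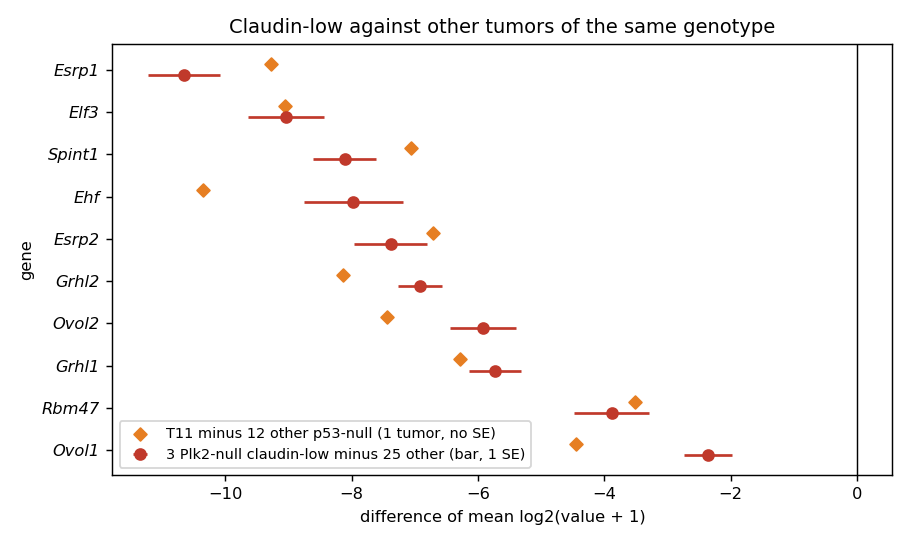
Difference of the mean log2(value + 1) of each gene between the 3 Plk2-/-; p53-/- claudin-low tumors and the 25 others (red, bars 1 SE) and between T11 and the 12 other p53-/- tumors (orange, 1 tumor, no error). Genes are ordered by the red points, from -10.65 for Esrp1 to -2.36 for Ovol1, and Ehf (-7.97 against -10.35) and Ovol1 (-2.36 against -4.45) stand farthest apart between the 2 sets.

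Whether the class stood apart by the same amount in both genotypes was fitted as an interaction in limma over all 41 tumors, in which T11, the lone claudin-low p53-/- tumor, is assumed to vary like the other groups. Since 1 arm is a single tumor and the class was drawn with genes of this set, the differences are a description. None of the 10 members passed an adjusted p of 0.05, 1 had an unadjusted p under 0.05, and 9.97% of the 17208 genes tested passed, and nothing is read from this count. The largest differences, as the Plk2-/-; p53-/- effect minus that of T11, were 2.38 ± 1.49 (SE) for Ehf and 2.08 ± 0.97 (SE) for Ovol1. The 95% interval, from the SE and the normal distribution, ran from -0.54 to 5.31 for Ehf and from -3.34 to 0.58 for Esrp1.

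PLK2null-7763, 1 of the 25 tumors outside the class, divided the members. It was the lowest of the 25 for 7 of the 10 genes, with Esrp1 at 314, Esrp2 at 326, Ovol1 at 48.2, Ehf at 453, Elf3 at 184, Rbm47 at 231 and Spint1 at 595. Grhl2, in contrast, was at 1901, the eighth lowest of 25, Grhl1 was at 489, the fourth lowest, and Ovol2 at 59.2, the fifth lowest. The median of the 25 was thus 13.3 times its Ehf and 12.1 times its Esrp1 but 1.15 times its Grhl2. This tumor also had an endothelial marker sum of 78025, where the 24 others reached 7743 at most, an adipocyte sum of 51862 against 3243 at most, and the lowest epithelial sum, 23802, against 49492 or more. Fabp4 alone made up 51564 of the adipocyte sum. The part of other cells in the values of this tumor was not tested.

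A second set of tumors stood at the other end. PLK2null-7750, PLK2null-1984, PLK2null-1985 and PLK2null-1986, whose libraries include the closest pair of all by counts, held the 4 highest values of the 25 for Esrp2 (3506 to 4235, where the next tumor was at 3213), Ehf (16775 to 20803, next 11398) and Rbm47 (2756 to 3827, next 2520). Their Esrp1, at 2938 to 4764, lay inside the range of the 21 others, with PLK2null-1986 the fourth highest of the 25, and the ratio of Esrp1 to Esrp2 was 0.838 to 1.16 in these 4 tumors against a median of 1.91 over the 25 and 3.45 over the 12 p53-/- tumors. Elf3, at 1733 to 2625, lay inside the range of the 21 others too, with PLK2null-1985 and PLK2null-7750 among the 4 highest, and the ratio of Ehf to Elf3 was 7.83 to 10.6 against a median of 3.41 over the 25. These 4 tumors were picked out after their values were seen, and they may share a tumor line.

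Other tumors gave shorter departures. PLK2null-1964 and PLK2null-7747 were the lowest pair for Grhl2 (998 and 1275) and for Ovol2 (34.3 and 35.7). Their libraries were among the closest pairs by counts, and they may share a tumor line. The basal-like tumor PLK2null-1963 kept a high Esrp1 (4478) beside the second lowest Esrp2 (543) and the second lowest Elf3 (425). PLK2null-7747, also basal-like, was low for both Esrp1 (1792) and Esrp2 (544). The luminal-like tumor PLK2null-1975 had the second highest Elf3 of the 25 (2811) and the luminal-like p53null-2208L the highest Esrp2 (2445) and Grhl1 (2288) of the 12. With 1 or 2 tumors named here for each of these classes, no comparison between them was made.

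The genotypes were compared first over all tumors. Over 28 against 13 tumors none of the 10 members passed in limma (adjusted p of 0.05), 1 had an unadjusted p under 0.05, and 39.5% of the 17208 genes tested passed. A permutation test over the tumors gave an unadjusted p under 0.05 for 1 of the 10, Ovol1. Ovol1 was closest, 0.87 ± 0.40 (SE) lower in the Plk2-/-; p53-/- tumors on the log2 scale (-0.87, adjusted p = 0.0813), and it was called, at -1.01 and adjusted p = 0.0436, when the tumors were rescaled by a trimmed mean of log ratios (TMM). The claudin-low tumors sit in both arms of this comparison, and its SE was 1.06 for Esrp1 and 0.95 for Elf3, beside 0.26 and 0.31 without those tumors.

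Without the claudin-low tumors, over 25 against 12, Ovol1 and Elf3 were lower in the Plk2-/-; p53-/- tumors and the other 8 genes did not pass. The 2 of 10 stand beside a background of 42.4% of the 17080 genes tested, and the 2 calls in the lower direction stand beside 17.4% of all genes. The median difference was -0.33 over the 10 genes and 0.07 over all genes. The latter became -0.05 after TMM rescaling, a shift of the whole scale against which small differences should be read, and the calls over all genes changed from 4274 higher and 2970 lower to 3392 higher and 3968 lower.

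Ovol1 had medians of 196 in the 25 and 394 in the 12 tumors, and the groups overlapped, since p53null-10152 at 41.7 lay below all 25. The difference was -0.96 ± 0.29 (SE), a 1.94-fold lower geometric level, with an adjusted p of 0.00748 in limma. Elf3, with medians of 1810 and 3003, differed by -1.03 ± 0.31 (SE), 2.04-fold, with an adjusted p of 0.00772 in limma. The opposite-strand RNA Gm26642 had medians of 190 and 66.8, and its part in the Elf3 values was not tested. Both calls held when each of the 37 tumors was left out in turn, with adjusted p of at most 0.0191 for Ovol1 and 0.0176 for Elf3. Without the library labelled p53null-7435 the adjusted p was 0.0113 for Ovol1 and 0.0155 for Elf3, and without PLK2null-7763 it was 0.0092 and 0.00603. With only the 7 Plk2-/-; p53-/- tumors that the study names as primary, Ovol1 was no longer called (-1.17, adjusted p = 0.104), and with PLK2null-7763 also removed neither was (Ovol1 -0.90, adjusted p = 0.22; Elf3 -0.9998, adjusted p = 0.0733). Over the 8 alternative limma fits of this comparison, adjusted p ranged from 0.00337 to 0.22 for Ovol1 and from 0.0052 to 0.0733 for Elf3.

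Esrp1 and Esrp2 lay on opposite sides of 0, and neither passed in limma. In the permutation test over these tumors the unadjusted p was 0.0252 for Esrp1, beside 0.0022 for Ovol1 and 0.00076 for Elf3, and it was above 0.05 for the other 7. Esrp1 differed by -0.51 ± 0.26 (SE; adjusted p = 0.113) with an interval of -1.03 to 0.00 and Esrp2 by 0.56 ± 0.31 (SE; adjusted p = 0.143) with an interval of -0.04 to 1.15. Spint1 (-0.54 ± 0.28, SE; adjusted p = 0.114) and Ovol2 (-0.45 ± 0.29, SE; adjusted p = 0.205) did not pass either. The remaining 4 were nearest to 0, with intervals of -0.36 to 0.25 for Grhl2, -0.65 to 0.24 for Grhl1, -0.54 to 0.71 for Rbm47 and -0.92 to 0.82 for Ehf. A difference of 2-fold was thus outside the interval for Grhl2, Grhl1, Rbm47 and Ehf and inside it for Esrp1, Esrp2, Spint1 and Ovol2. The intervals treat libraries as independent and may be too narrow where tumors share a line, so a 2-fold difference is not excluded. The sign for Rbm47 (0.09) turned under TMM rescaling (-0.04) and that of Ehf (-0.05) without PLK2null-7763 (0.10).

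**Figure D3:**
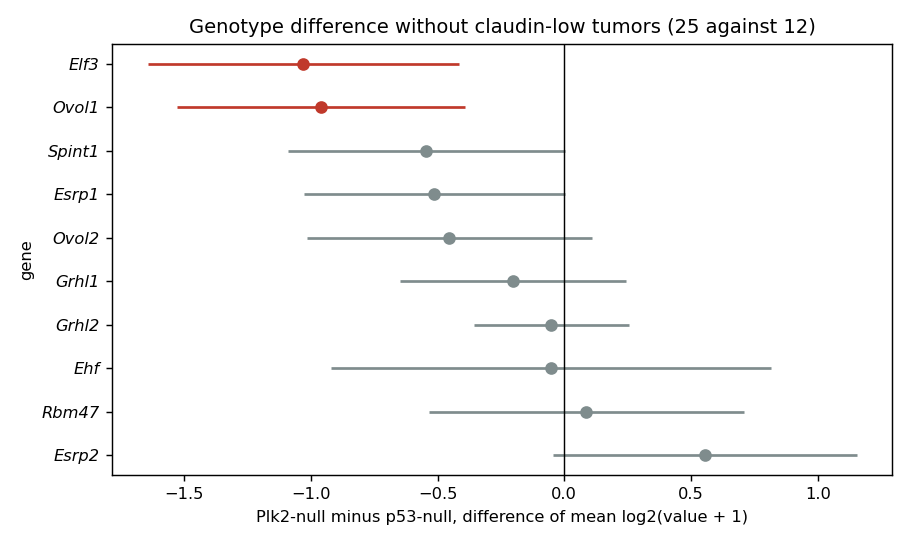
Difference of the mean log2(value + 1) between genotypes (25 Plk2-/-; p53-/- tumors against 12 p53-/- tumors, none claudin-low), with bars that span the 95% interval. Elf3 (-1.03) and Ovol1 (-0.96), in red, passed an adjusted p of 0.05 in limma, and the 8 genes in grey, up to Esrp2 at 0.56, did not.

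Paralogues were compared within each genotype outside the claudin-low class, as Pearson's r and Spearman's rho on log2(value + 1) with permutation p from 100000 resamples, adjusted over the 8 tests made (4 pairs in 2 genotypes). Tumors of 1 line are not independent, so these p may be too small. In the 25 Plk2-/-; p53-/- tumors Ehf and Elf3 rose and fell together (r = 0.77, adjusted permutation p = 0.00016; rho = 0.64, adjusted p = 0.00648), and so did Ovol1 and Ovol2 (r = 0.70, adjusted permutation p = 0.0008; rho = 0.58, adjusted p = 0.0123). Esrp1 and Esrp2 were related by r (0.67, adjusted permutation p = 0.000827) and not by rho (0.45, adjusted p = 0.0699). Without the 2 tumors farthest from the median on the x axis, r was 0.55 for Ehf with Elf3 (adjusted permutation p = 0.0319) and 0.62 for Ovol1 with Ovol2 (0.0149), but neither rho passed any longer (0.54, adjusted permutation p = 0.0683, and 0.48, adjusted permutation p = 0.0861). For Esrp1 with Esrp2 r was then 0.44 (adjusted permutation p = 0.098), so that relation rests on PLK2null-1964 and PLK2null-7763. Grhl1 and Grhl2 had r = 0.19 (adjusted permutation p = 0.522).

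In the 12 p53-/- tumors no pair passed. There r was 0.38 for Ehf with Elf3 (rho = 0.29), 0.25 for Ovol1 with Ovol2 (rho = 0.14), -0.05 for Esrp1 with Esrp2 (rho = -0.08) and -0.20 for Grhl1 with Grhl2 (rho = -0.31), with adjusted permutation p of 0.442 or more for r and 0.47 or more for rho. Without the 2 farthest tumors these were 0.20, 0.47, -0.10 and -0.09. Whether the genotypes differ in these relations was not tested.

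**Figure D4:**
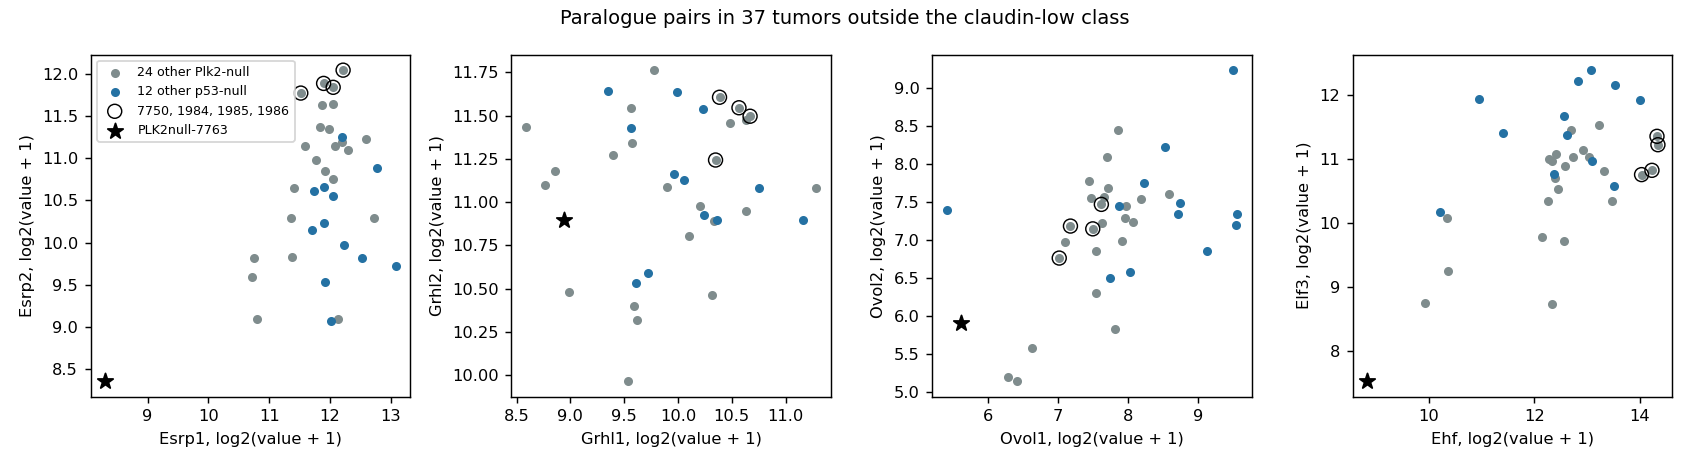
The 4 paralogue pairs in the 37 tumors outside the claudin-low class, both axes as log2(value + 1), grey for Plk2-/-; p53-/- and blue for p53-/- tumors. PLK2null-7763 (star) is far below the others for Esrp1 with Esrp2 and for Ehf with Elf3 but inside the cloud for Grhl2, and the 4 circled tumors hold the highest Esrp2 and Ehf.

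The genes whose pattern over the 25 tumors was most like that of Esrp1, by Pearson's r of log2(value + 1) and as a description, were Mpzl2 (0.90), an adhesion protein of epithelia, Ocln (0.89), the tight junction protein occludin, Phldb3 (0.86), Itgb6 (0.85), an epithelial integrin subunit, and Chmp4c (0.83), of the ESCRT machinery. Over the 12 p53-/- tumors their r was 0.64, 0.48, 0.32, 0.31 and 0.09, and over 24 tumors without PLK2null-7763 it was 0.60 to 0.78. For Grhl2 they were Cpox (0.82), an enzyme of heme synthesis, Brpf1 (0.79), a chromatin reader, Eif2ak3 (0.78), the stress kinase PERK, Fam83h (0.78), which binds keratins, and Amn1 (0.76). Over the 12 tumors these had r of 0.51, 0.26, 0.52, 0.67 and 0.46. The 2 sets had no gene in common, and the correlation of Grhl2 with its 5 was 0.76 to 0.85 without PLK2null-7763.

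Relatives of the 10 genes did not all behave like them. Beside the counts in this list and those that follow, 8.87% of all genes lay below and 11.1% above all 25 others in the claudin-low class. Over 25 against 12, 42.4% of all genes passed, and 17.4% were lower. Of 12 listed relatives 10 were tested, and in the claudin-low class 3 lay below all 25 others, Elf5 (30.8, 10.2 and 5.65 against a median of 3137), a factor of the mammary secretory lineage, the inhibitor Spint2 (676, 339 and 330 against 7097) and Grhl3 (14.3, 20.4 and 9.60 against 57.4). Elf4 (1.98) and Elf2 (0.45), ETS factors that are not limited to epithelia, lay above all 25. Between genotypes, over 25 against 12, Spint2 (-1.54 ± 0.27, SE; adjusted p = 1.58e-05 in limma) and Grhl3 (-1.03 ± 0.41, SE; adjusted p = 0.0396) fell beside Elf3 and Ovol1, and the RNA-binding proteins Syncrip (0.40) and Hnrnpr (0.34) and the factor Elf2 (0.37) rose, Hnrnpr no longer so after TMM rescaling (adjusted p = 0.146). Over 28 against 13 tumors 4 of the 10 relatives passed, all higher, a share close to the 39.5% of all genes.

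Of 18 adhesion and junction genes, among which Grainyhead-like targets are known, 17 lay below all 25 others in the claudin-low class, as did 8.87% of all genes. Nothing is read from this count, since the class was drawn with genes of the same kind. The median difference of the 18 was -7.34, and Jup, a plakoglobin gene also used by endothelium, was the exception at 0.46. The largest differences were those of Cldn3 (-9.48), Cdh1 (-9.13), Epcam (-9.05) and Marveld3 (-8.97). In T11 all 18 were more than 4-fold below the mean of the 12, as were 12.7% of all genes. Between genotypes none of the 18 passed over 28 against 13 tumors, where 39.5% of all genes did. Over 25 against 12, where 42.4% of all genes passed and 17.4% were lower, 5 of the 18 passed, all lower. These were Ap1m2 (-1.01), Tjp3 (-0.86), Rab25 (-0.81), Pkp3 (-0.80) and Prss8 (-0.59).

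The genes whose transcripts ESRP proteins splice showed no common direction in the claudin-low class at the level of the whole gene. Gene totals carry no information on isoforms. Of 10, only Cd44 was below all 25 others in the claudin-low class, at 1494, 1444 and 1757 against 1955 to 28218, and only Magi1 was above them, at 3630, 3888 and 4150 against 813 to 3375. T11 differed from the 3 tumors here, with Cd44 at 13162, above all 12 other p53-/- tumors, and Fgfr2 at 4.79, below all 12. Between genotypes over 25 against 12, Slk (0.72), Rps6kb2 (0.67), Magi1 (0.62), Arhgef11 (0.60) and Nf2 (0.32) rose and Fgfr2 fell by 3.09 on the log2 scale. The median difference of the 10 was 0.46, beside 0.07 over all genes, of which 42.4% passed. Nf2 was no longer called after TMM rescaling (adjusted p = 0.109).

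Splicing regulators of the mesenchymal state mostly overlapped between the classes. In the claudin-low class 1 of 10, Qk, which opposes several epithelial splicing choices, lay above all 25 others, at 14782, 17609 and 15609 against 2812 to 9644, the last of these being PLK2null-7763. In T11 none of the 10 was 4-fold higher, where 5.26% of all genes were, and Qk was at 5786, above the 2037 to 4659 of the 12. Between genotypes 5 of the 10 passed over 25 against 12, near the 42.4% of all genes. Srsf1 (0.47), Rbfox2 (0.44), Celf1 (0.44), Mbnl2 (0.42) and Qk (0.32) rose, of which Rbfox2, Mbnl2 and Qk were no longer called after TMM rescaling (adjusted p = 0.0627, 0.115 and 0.187) and Srsf1 and Celf1 were.

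Among 8 EMT transcription factors, Zeb1, which represses epithelial genes and is repressed by OVOL2, was at 5119, 5682 and 7320 in the claudin-low tumors against 152 to 2344 in the 25 others. Tcf4 lay above all 25 as well (2.58), and Zeb2 (1.11) overlapped. The rest overlapped too, with Snai2 (1.21) and Snai1 (0.35) higher and Twist2 (-1.90), Twist1 (-1.53) and Prrx1 (-0.13) lower. In T11 5 of the 8 were more than 4-fold higher, as were 5.26% of all genes, led by Twist2 (4.81), Zeb1 (3.77), Prrx1 (3.17) and Snai1 (2.26). Endothelial cells also express Zeb1, Tcf4 and Qk, and the highest value of the 25 for Zeb1, Tcf4 and Qk belonged to PLK2null-7763, with its high endothelial markers. Between genotypes over 25 against 12, Prrx1 (1.76), Snai1 (1.69), Zeb2 (1.44) and Tcf4 (0.77) rose and Snai2 (-1.95) fell. Of 6 mesenchymal genes 1, Sparc (2.64), was above all 25 in the 3 tumors. The rest overlapped, with Vim (2.09) higher and Cdh11 (-3.29), Fn1 (-0.60), Cdh2 (-0.52) and Mmp2 (-0.11) lower. In T11 4 were more than 4-fold higher, as were 5.26% of all genes, Fn1 (3.47), Cdh11 (3.22), Cdh2 (2.92) and Vim (2.82).

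The partners of Spint1 were low with it in part. Of 9 tested, 5 lay below all 25 others in the claudin-low class, St14 (-8.23), the gene of matriptase, Prss8 (-7.88), Tmprss13 (-7.16), the receptor Met (-7.02) and Spint2 (-3.84). Met was at 276, 231 and 186 in the 3 tumors against 419 to 203935 in the others, whereas in T11 it was at 3377, inside the range of the 12. There 6 of the 9 partners were more than 4-fold lower, as were 12.7% of all genes. Between genotypes over 25 against 12, Met rose (3.68 ± 1.002, SE; adjusted p = 0.00314 in limma), and Mst1 (-2.64), Spint2 (-1.54) and Prss8 (-0.59) fell, while Spint1 itself did not pass.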

How the data were processed

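RNA was sequenced from 41 mouse mammary tumors (TruSeq mRNA libraries, paired reads). Per the labels and the study's methods, the authors aligned reads to mm10 with STAR 2.7.6a, quantified genes with Salmon 1.4.0, used Picard 2.22.4 and SAMtools, and divided counts by each tumor's upper quartile; the gene annotation is not given in the sources used here. The deposited signal is linear, and nonzero genes have an upper quartile of 1000 in each tumor. Low values lie on steps that give the value of 1 read, but only 77.8 to 80.5% of nonzero values lay within 0.1 of whole reads, so no count model was used.

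Groups came from the labels and the claudin-low class from the study. The 10 genes and the gene lists were chosen with earlier results of these data known. Values were analysed as log2(value + 1), which understates changes of low genes, in limma 3.58.1 (R 4.3.3), for genes whose mean reached 10 over the tumors fitted, with Benjamini-Hochberg adjustment over all genes and a threshold of 0.05. All 10 genes passed the filter in every fit. Comparisons were the genotypes with and without claudin-low tumors, the class within each genotype, and their interaction. Single genes and correlations used permutation tests (Python 3.11.15, scipy 1.17.1, numpy 2.4.6, pandas 2.3.3). From each list, called genes were named by size of difference, at most 4 a list and comparison. Called genes past the first 4, Jup, the overlapping RNAs and single tumors were named after their values were seen. So were the single adipocyte markers and, in the class, Zeb2 and the other EMT factors and mesenchymal genes that overlapped. The Qki gene is listed as Qk. Positions are from GENCODE vM21 on GRCm38, the build of mm10. The fits were tested on simulated data. Alternatives were a pseudocount of 10, no filter, TMM rescaling, an intensity trend, permutation, fewer tumors and leaving out single tumors; leaving out PLK2null-7763 (apart from the class comparison), p53null-7435 or each of the 37 tumors was chosen after seeing the data. No 2 libraries differed by less than sampling noise.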

Additional observations from a re-analysis of the deposited data

How the results depend on the processing

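Of 356 single-gene or single-pair results under an alternative, 326 kept their direction and their side of the threshold or moved by less than the spread between tumors. All 10 genes stayed below all 25 others in the claudin-low class after TMM rescaling. The other alternatives run for that comparison could not change this, since they keep the order of the values or only leave out tumors. Over 28 against 13 tumors the number of members called was 1 in place of 0 with TMM rescaling. Over 25 against 12 it was 1 with the 7 primary tumors and 0 with 6, in place of 2, and it was 2 whichever of the 37 tumors was left out. In the interaction it ranged from 0 to 1 when PLK2null-732, PLK2null-733 or PLK2null-743 was left out. The genes called over the whole table fell to 2942 (28 against 13) and 3160 (25 against 12) with the 7 primary tumors and to 2901 with 6, where fewer tumors entered the fit. After TMM rescaling the 28 against 13 calls were 3221 higher and 3711 lower, in place of 4175 and 2627. Signs turned for some members, not all of them near 0. Rbm47 turned in the genotype difference at -0.0376 (TMM) and -0.32 (7 primary tumors) over 25 against 12. Over 28 against 13 it turned at 0.0206 (without PLK2null-7763). Ehf turned at 0.0103 (6 primary tumors), 0.10 (without PLK2null-7763) and 0.0413 (without p53null-7435) over 25 against 12. Over 28 against 13 Ehf turned at 0.28 (7 primary tumors) and 0.0423 (without p53null-7435). With the 7 primary tumors over 28 against 13, Grhl1 at 0.19 (main fit, -0.33), Grhl2 at 0.59 (main fit, -0.17) and Ovol2 at 0.33 turned too. That fit kept T11 in the p53-/- group and held no claudin-low tumor in the other group. In the interaction Esrp1 went from -1.38 to 0.0486 (pseudocount of 10). Elf3 turned there at -0.0879 (TMM), -0.72 (without PLK2null-732), -0.0403 (without p53null-7435) and -0.0989 (without PLK2null-7763). Without PLK2null-733 or PLK2null-743 the Elf3 values kept their sign, up to 0.40. The cause of these turns was not tested. Depth limits Esrp1, Elf3 and Ovol2 in claudin-low tumors, where 2 of 3 values of each were at or below 3 reads. No paired analysis was possible because the tumor numbers are names and are not shared between the groups.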
